A study of Ptychodera flava with 8 samples.

Results

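The regions described here are stretches of open chromatin that were accessible throughout the early development of Ptychodera flava, an acorn worm of the phylum Hemichordata, and that kept nearly the same rank among all open sites from early blastula to late gastrula. Peaks of the 4 stages that overlapped by at least 1 bp were merged into 82811 regions, of which 24094 held a peak at every stage and 23566 also held no peak wider than 1000 bp. The last set is called eligible below. Within each stage, every peak was given a percentile from 0 to 100 by its enrichment, which is the authors' fold over background, and a region took its highest peak of the stage. Members were thus chosen by enrichment: a region was called steady when its highest and lowest percentile over the 4 stages lay less than 15 points apart. This held for 8698 regions, or 36.9% of the eligible ones (Wilson 95% interval 36.3 to 37.5).

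The study profiled whole embryos by ATAC-seq at the early blastula stage and at the early gastrula, mid gastrula and late gastrula stages, with 2 libraries per stage and cells pooled to 75000 per sample; the labels give no genotype or treatment that differs between the groups. Each stage is represented by 1 deposited list of peaks for both libraries, so no value per library exists, no difference between stages or regions can be tested against replicates, and depth is unknown. Intervals cover counting error over regions only, and regions are not replicates. The lists held 46275, 48416, 43317 and 64713 peaks in developmental order. Of these, 19.5%, 18.9%, 21.1% and 14.4% lay in steady regions. Positions are 1-based on the scaffolds as the lists name them. No source used here states their genome build, and gene names and sequence were therefore not used here.

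As background, ATAC-seq uses the Tn5 transposase, which inserts adapters where DNA is not wrapped in nucleosomes. In animal embryos, promoters of broadly used genes are often open at many stages, whereas distal enhancers open and close more often as cells take on fates. The blastula is a hollow ball of cells, and gastrulation folds part of its wall inward to form the gut. A site that holds its place in the ranking through this change is thus one whose rank among open sites moved little, whatever its height. A small change in rank does not by itself mean a small change in enrichment.

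In the ranking of the whole lists, steady regions stood mainly at the upper end, with a second, smaller group at the lower end. The level of a region is taken here as its mean percentile over the 4 stages. The median level was 82.0 for steady regions (binomial 95% interval 81.3 to 82.8) and 57.7 for the other eligible regions. A high level, at or above 75, was held by 5045 steady regions (58.0%), a low level, below 25, by 1950 (22.4%), and a middle level by 1703 (19.6%). Eligible regions were themselves uneven, with 8173 at high, 12062 at middle and 3331 at low level. With percentiles taken among the eligible regions alone, the median level of steady regions was 53.7, and 62.3% of low-level and 59.8% of high-level eligible regions were steady. The same enrichment values chose the members, so these are descriptions and not findings about them.

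The share of eligible regions that were steady fell from both ends of the ranking towards its middle. It was 95.3% for levels below 10 and 92.6% for levels of 90 or more, against 11.1% for levels from 40 to 50 and 11.3% from 50 to 60. By level band it was 58.5% at low, 14.1% at middle and 61.7% at high level. The percentile scale ends at 0 and 100, which by itself limits the spread of a region near either end. Steadiness at middle level is therefore the stricter condition, and most comparisons below are given by level band. With ranks taken from −log10 p in place of enrichment, the shares were 12.2% at low, 10.8% at middle and 64.7% at high level, so that the group at the lower end belongs to the ranking by enrichment.

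**Figure D1:**
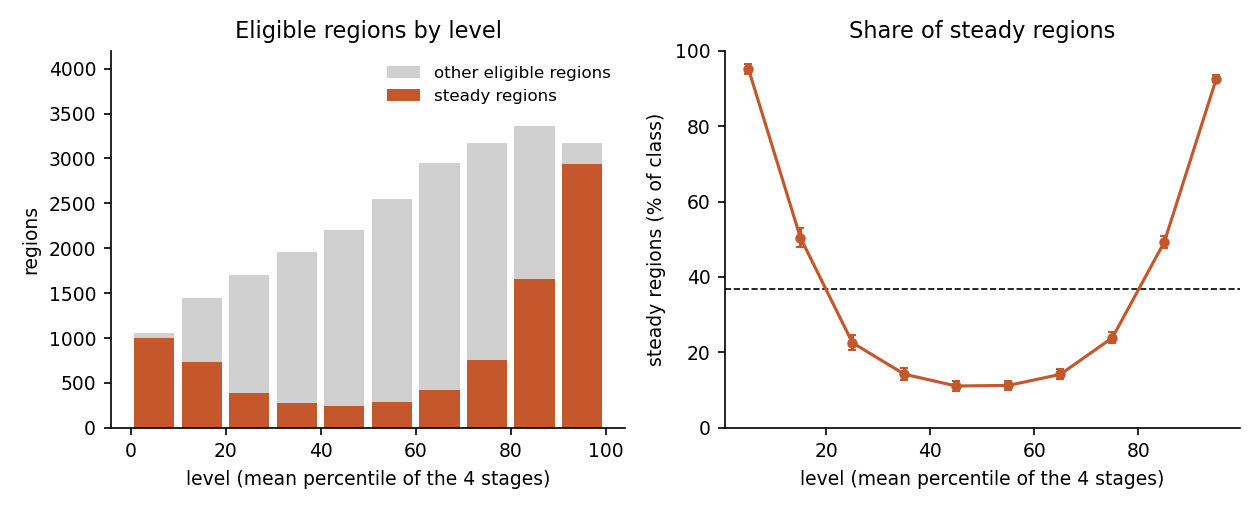
Left, the number of eligible regions in 10 classes of level (mean percentile of enrichment over the 4 stages), with steady regions in orange. Right, steady regions as a percentage of each class with Wilson 95% intervals; the dashed line is the share over all eligible regions, 36.9%, and the share is lowest, 11.1%, at levels from 40 to 50.

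Of the steady regions, 3325 (38.2%) moved by 10 to 15 points, near the limit, and 3153 (36.2%) by 5 to 10 points. Their median spread was 8.47 points, against 19.8 for all eligible regions, a contrast that the limit itself brings about. Within 2 points stayed 622 of them (7.15%). Of those 622, 487 were of high and 129 of low level, and 6 were of middle level. At middle level the median spread of steady regions was 11.4 points, compared with 7.43 at high and 7.83 at low level. Just inside the limit was a region on scaffold 23 at 18091133 to 18091320, with percentiles of 71.4, 86.4, 73.1 and 78.2 in developmental order. The next inside, on scaffold 6 at 38164037 to 38164320, went from 82.4 at early blastula through 74.4 and 75.5 to 89.4 at late gastrula. Just outside were scaffold 19 at 39173289 to 39173633, which went from 64.3 to 62.9, 53.2 and 49.3, and scaffold 15 at 25575459 to 25575900, with 89.8, 75.4, 90.4 and 87.3. The sites on either side of the limit thus moved alike, by 14.99 points inside and at least 15.003 outside.

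Single steps between consecutive stages were of similar size. The limit on spread bounds every single step of a steady region, so that small steps follow from the choice of members. The median step was 3.47 points into early gastrula, 3.11 into mid gastrula and 2.998 into late gastrula, and 63.5%, 66.1% and 67.7% of steady regions moved by less than 5 points in these steps. Late gastrula was the highest of the 4 stages in 3241 steady regions (37.3%) and early blastula the lowest in 2954 (33.96%). From early blastula to late gastrula, 5325 steady regions rose and 3373 fell, with a median change of 1.43 points. This slight upward drift turned round when percentiles were taken among the eligible regions alone, where 3669 rose and 5029 fell, with a median change of -1.10 points. In the ranking of the whole lists an upward drift was not particular to steady regions. The other eligible regions had a median percentile of 53.5 at early blastula and 64.2 at late gastrula. Of them, 6891 gained at least 15 points between these stages and 2989 lost at least 15. The late gastrula list is the longest.

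The 3 highest steady sites were those whose lowest percentile over the 4 stages was highest. Their place among the most enriched peaks of every list is thus given by the choice. Near the upper end of the scale there is also little room for spread. The region on scaffold 2 at 2129350 to 2129792 had enrichments of 25.5 at early blastula and 29.0, 30.2 and 30.7 at early, mid and late gastrula, which placed it at the 99.99 percentile or above at every stage. Its spread of 0.00864 points was the smallest of all eligible regions. The region on scaffold 24 at 19287818 to 19288194 had enrichments of 27.7, 27.5, 28.3 and 29.9 in the same order, with a spread of 0.0227 points. The region on scaffold 57 at 745247 to 745615 had 25.3, 29.2, 28.2 and 32.3, with a spread of 0.0231 points. The peak summits of these sites, the points of highest signal, also stayed in place, within 4, 5 and 13 bp over the 4 stages. The nearest other region lay 12648, 12095 and 5163 bp away. All 3 had the maximum reproducibility score of 1000 in every list.

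The lowest steady sites had enrichments between 2.13 and 2.97 and lay in crowded surroundings. The region on scaffold 17 at 2904293 to 2904531 had enrichments of 2.13, 2.72, 2.81 and 2.70 from early blastula to late gastrula, with percentiles from 0.0432 to 0.247. The next lowest were both on scaffold 10, at 33955887 to 33956125 with enrichments of 2.48, 2.80, 2.83 and 2.65, and at 33958307 to 33958566 with 2.45, 2.67, 2.97 and 2.70. Each was at or below the 0.374 percentile of its list at every stage. The nearest other region lay 86, 429 and 232 bp from them, and 33, 29 and 29 other regions lay within 50 kb. On scaffold 10 the summits stayed within 1 and 2 bp over the 4 stages, as closely as at the highest sites, whereas those of the scaffold 17 site spread over 72 bp. By significance they were near the bottom at early blastula and less so later: their −log10 p stood at the 1.58, 3.54 and 3.95 percentiles at early blastula and at the 17.6, 18.2 and 27.6 percentiles at late gastrula.

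In the middle of the ranking the steadiest site was on scaffold 12 at 42947576 to 42948127. It had enrichments of 7.47, 8.69, 9.06 and 8.38, percentiles from 57.1 to 57.9 and a spread of 0.778 points. Its widths were 552, 307, 481 and 507 bp and its summits spread over 133 bp, so a steady rank did not go with a fixed shape there. The region on scaffold 4 at 34372443 to 34372873 had enrichments of 8.54, 10.1, 10.4 and 9.78 and a spread of 1.27 points. The region on scaffold 15 at 32096270 to 32096944 had 7.98, 9.43, 9.65 and 8.92 and a spread of 1.33 points. Their summits stayed within 36 and 22 bp. When peaks were ranked by −log10 p in place of enrichment, the spreads of the scaffold 12 and scaffold 15 sites were 19.6 and 20.9 points, over the limit.

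**Figure D2:**
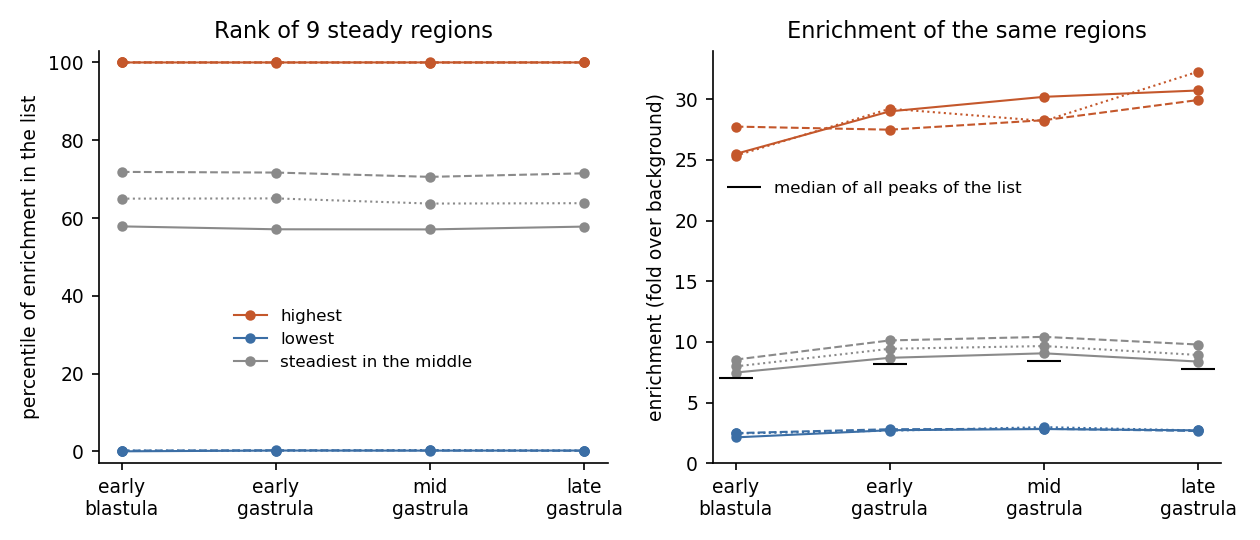
Percentile of enrichment (left) and enrichment as fold over background (right) at each stage for 9 steady regions, the 3 highest, the 3 lowest and the 3 of smallest spread at middle level; black bars are the median of all peaks of the list. Percentiles run flat while the enrichment of all 3 middle sites is lowest at early blastula, as is the list median, 6.996.

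Enrichment itself differed between the 4 lists, while the rule holds the ranks of a steady region within 15 points. At high level the median enrichment of steady regions was 11.2 at early blastula (quartiles 9.98 to 13.1), 13.9 and 14.3 at early and mid gastrula, and 14.2 at late gastrula (12.2 to 16.6). At middle level it was 7.29, 8.54, 8.87 and 8.26, and at low level 4.46, 4.93, 4.99 and 4.82. The medians of all peaks of the lists were 6.996, 8.15, 8.43 and 7.73. Early blastula was lowest in each band and in the lists as a whole. Each list has its own scale, so these values are set side by side and no change between stages is read from them.

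Steady regions of low level stood nearer the middle of the lists by significance than by enrichment. Among steady regions they were still the lowest by significance. The median level by −log10 p was 45.3 at low, 75.3 at middle and 89.2 at high level. Low-level steady regions had a median enrichment percentile of 9.28, 8.84, 8.65 and 11.3 in developmental order, but the −log10 p of the same peaks stood at a median percentile of 44.8, 48.4, 43.8 and 50.7. Their median −log10 p was 24.3 at early blastula and 28.4 at late gastrula, near the medians of the whole lists, 26.1 and 28.0. At high level both ranks lay close together, with median percentiles of −log10 p from 87.8 to 92.6. At middle level steady regions stood higher by −log10 p than by enrichment, at a median level of 75.3, and higher than the other eligible regions of that band, at 59.3. The order was the same in 10 of 10 level classes. In the low band as a whole the medians by −log10 p were 45.3 for steady and 45.7 for other eligible regions. Their median levels by enrichment there were 9.69 and 19.2. A place near the middle by significance was thus not particular to steady regions of low level.

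A steady rank by enrichment often, but not always, meant a steady rank by significance. Of the 8698 steady regions, 5004 (57.5%, 56.5 to 58.6) also stayed within 15 points by −log10 p. The share was 68.4% (67.1 to 69.7) at high, 61.0% (58.7 to 63.3) at middle and 26.3% (24.4 to 28.3) at low level. Among other eligible regions it was 21.0%, 16.8% and 8.33% in the same bands. Both measures come from the same peaks, so this is a description of the lists and no independent test. The maximum reproducibility score was held at all 4 stages by 61.9% of steady regions and by 27.9% of the others. By band, these shares were 23.1% and 14.3% at low, 58.5% and 26.3% at middle and 77.96% and 39.3% at high level.

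**Figure D3:**
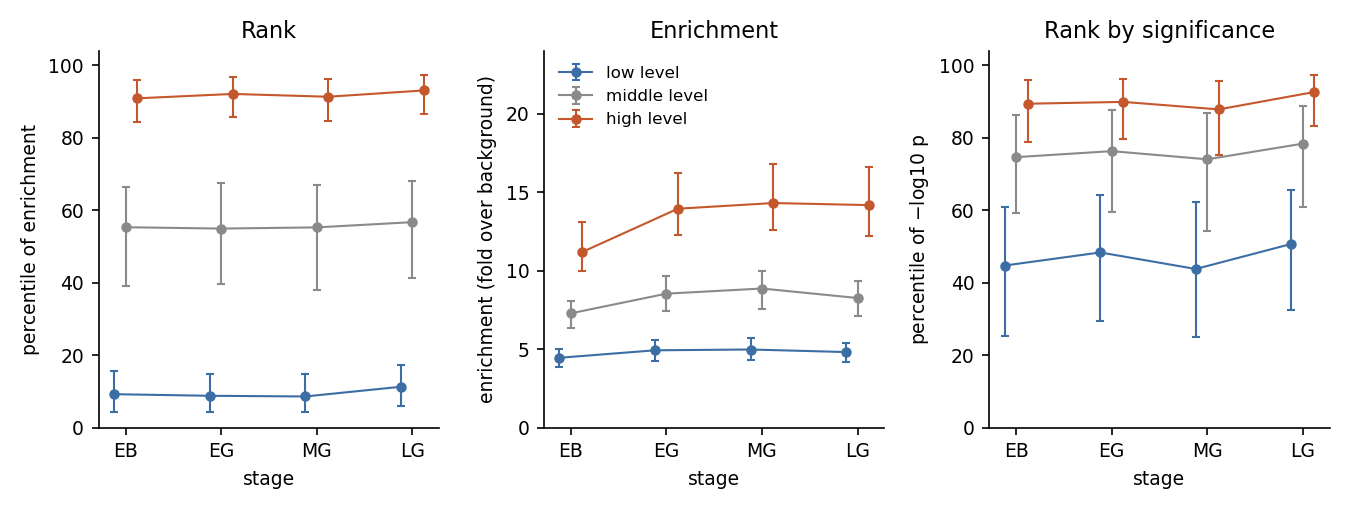
Median and quartiles over steady regions of low (1950), middle (1703) and high (5045) level at early blastula (EB) and at early (EG), mid (MG) and late gastrula (LG). The panels give the percentile of enrichment, the enrichment as fold over background and the percentile of −log10 p; low-level regions have a median percentile of 9.28 by enrichment at early blastula but of 44.8 by −log10 p.

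The position of the summit was not used to choose the members, and it was held at least as closely in steady regions as elsewhere. Summits of all 4 stages lay within 50 bp of each other in 6404 of 8698 steady regions (73.6%, 72.7 to 74.5) and in 10100 of the 14868 other eligible regions (67.9%, 67.2 to 68.7). The median distance between the outermost summits was 23 and 29 bp. Part of this gap went with level: with the others weighted to the level classes of the steady regions, their share was 70.5%. At low level the shares were 65.2% (63.1 to 67.3) and 64.7% (62.2 to 67.2), at middle level 68.9% (66.6 to 71.0) and 66.7% (65.8 to 67.6), and at high level 78.5% (77.3 to 79.6) and 73.5% (71.9 to 75.01). In classes of 10 points of level, steady regions had the higher share in 9 of 10 classes, but in 0 of 10 did the intervals lie apart. The intervals lay apart in the high band as a whole, where steady regions also stood higher, with a median level of 91.5 against 81.7. Among steady regions themselves, alignment was higher at higher level, from 64.2% below level 10 to 81.9% at level 90 and above.

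The edges of steady regions moved little between stages. Edges were those of the highest peak of each stage, and other peaks of a region were left out. The outermost starts lay a median of 35 bp apart over the 4 stages and the outermost ends 36 bp, against 39 and 39 bp in the other eligible regions. The stretch shared by these 4 peaks made up a median of 75.8% of the stretch between their outermost edges (75.3 to 76.3). In the other eligible regions it was 73.0% (72.6 to 73.4). By band the medians were 75.02% and 73.4% at low, 76.6% and 72.8% at middle and 75.9% and 73.4% at high level. At least 1 stage held more than 1 peak in 1028 steady regions (11.8%) and in 1567 of the 14868 other eligible regions (10.5%).

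Peaks of steady regions were wider than those of other eligible regions of the same level in the deposited lists. The median width, averaged over the 4 stages of a region, was 365 bp for steady regions of middle level (357 to 372) and 319 bp for the others (317 to 322). Among the others it was 314.5 bp in regions whose percentile at late gastrula was at least 15 points above early blastula and 338 bp in those at least 15 points below. Steady regions had the higher median width in 10 of 10 level classes, with intervals apart in 7. At low level the medians were 296.5 and 294 bp. The difference of 45.8 bp at middle level was absent under other settings: it was 1.0 bp when ranks came from −log10 p and -4.38 bp when all lists were shortened to equal length. Under the other settings it lay between 17.6 and 60 bp. In steady regions of all levels the median width was 358 bp at early blastula, 345 and 337 bp at early and mid gastrula and 328 bp at late gastrula. It fell in the same order in the other eligible regions, with 314, 309, 304 and 298 bp.

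**Figure D4:**
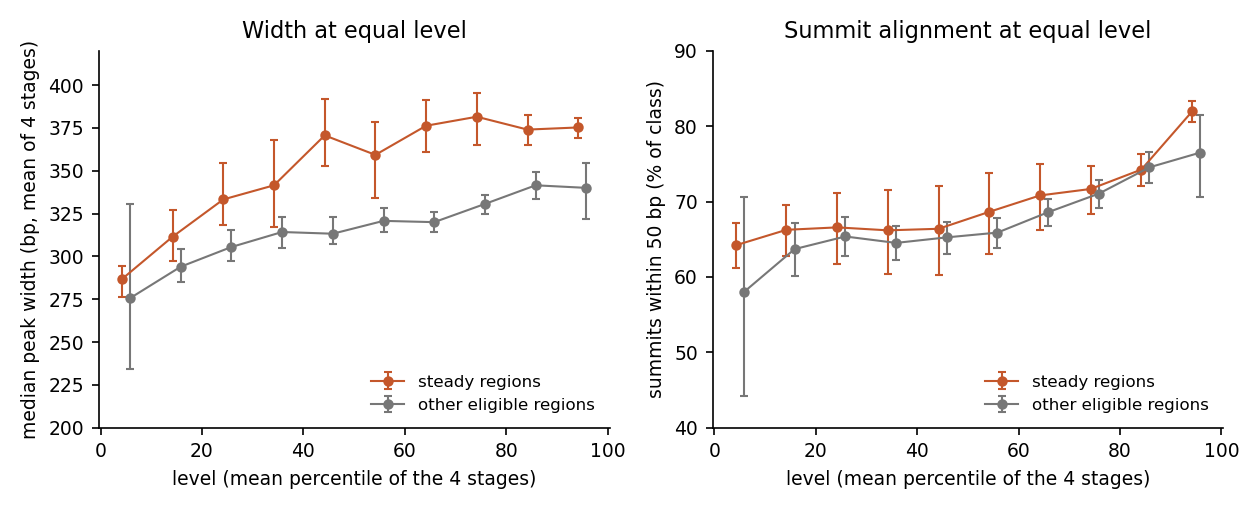
Steady regions (orange) and other eligible regions (grey) in 10 classes of level. Left, median peak width in bp (mean of the 4 stages) with binomial 95% intervals; right, percentage of regions with the summits of all stages within 50 bp, with Wilson 95% intervals. The vertical axes do not start at 0; widths lie apart in 7 classes and summit shares in 0.

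Steady regions of middle level lay closer to other open sites than regions of that level that changed rank. The gap to the nearest other region had a median of 408 bp (370 to 454) in the 1703 steady regions of middle level and 690 bp (655 to 733) in the 10359 others. It was 718 bp where rank was gained and 676 bp where it was lost. In the 10 classes of level, the median gap was shorter for steady regions in 10. The difference at middle level, -282 bp, kept its direction under every alternative tried, between -623.5 and -190.5 bp. The share of steady regions fell with distance at middle level, from 16.8% (15.8 to 17.8) with a neighbour within 0.5 kb to 5.13% (3.45 to 7.59) with the nearest neighbour 10 to 30 kb away, where 23 of 448 were steady. Beyond 30 kb it was 8.45% (3.93 to 17.2), from 6 of 71 regions. At low level it was 61.6% (59.5 to 63.8) within 0.5 kb, 56.4% (53.5 to 59.3) from 0.5 to 2 kb and 42.8% (36.7 to 49.1) from 2 to 10 kb. No such fall was seen in the shares at high level. They were 64.0% (62.1 to 65.9) within 0.5 kb and 63.9% (61.0 to 66.6) at 10 to 30 kb. For neighbours 0.5 to 2 kb away the share was lower, 54.7% (52.0 to 57.4). Median level rose with distance there, from 85.7 within 0.5 kb to 90.5 at 10 to 30 kb. At low level it rose too, from 14.0 within 0.5 kb to 17.5 from 2 to 10 kb. Steadiness also varied with level inside these bands, so these shares do not separate distance from level.

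Surroundings differed far more between low and high steady regions than between steady and other regions. Low-level steady regions had a median gap of 311.5 bp (292 to 335) to the nearest region and a median of 21 other regions within 50 kb on each side. High-level steady regions had 2678 bp (2391 to 2985) and 10 regions. The same contrast was present in regions that were not steady, with 390 bp and 19 regions at low level against 2289 bp and 10 regions at high level. A steady low rank was therefore found mainly in crowded stretches and a steady high rank mainly at sparse sites. The nearest region was more than 30 kb away for 347 eligible regions, of which 275 were of high level. Among them were 175 steady regions, 168 of high level. At high level, 3.33% of steady and 3.42% of other eligible regions had their nearest region this far away. Whether the authors took enrichment against a local background is not stated in the sources used here, and the part of the neighbours in the low rank was not tested.

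Over all levels, neighbouring eligible regions were more often both steady when they lay close together. Of steady regions whose next eligible region lay within 1 kb, that neighbour was steady in 48.0%, compared with 33.7% when the region itself was not steady. Each pair was counted from both sides. For gaps of 20 kb and more the shares were 39.5% and 35.0%. Neighbours also resemble each other in level, so the shares were taken again where both regions lay in the same band. Within 1 kb they were 79.7% and 56.8% at low level, over 554 pairs. They were 24.2% and 17.6% at middle level, over 1186 pairs, and 65.8% and 59.4% at high level, over 175 pairs. Steady regions had the higher share in each band at this distance. Bands do not remove likeness in level, as the steady share was 95.3% below level 10 and 50.4% from 10 to 20. Low-level neighbours within 1 kb differed by a median of 5.76 points of level. At high level the share beside a steady region hardly differed with distance, at 66.7% from 1 to 5 kb, 66.7% from 5 to 20 kb and 63.6% beyond 20 kb, against 59.5%, 63.6% and 60.7% beside other regions. At middle level it was 13.4% and 10.9% beyond 20 kb. At low level the order turned there, with 38.1% and 59.1%, over 43 pairs.

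**Figure D5:**
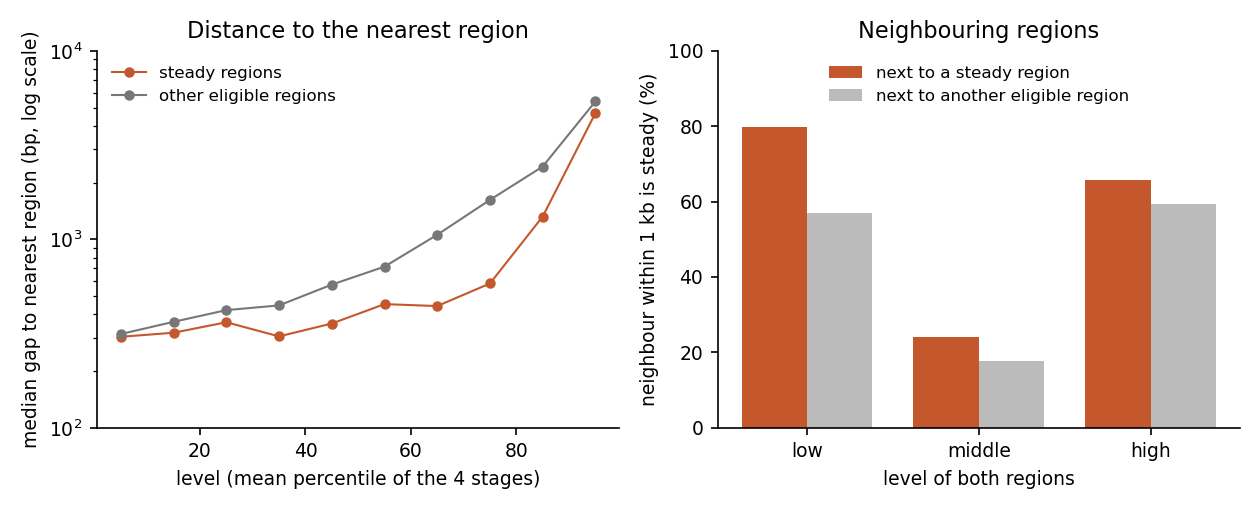
Left, median gap in bp (log scale) from steady (orange) and other eligible regions (grey) to the nearest merged region, by level; at levels from 40 to 50 the medians are 357.5 and 575 bp. Right, percentage of eligible neighbours within 1 kb that are steady, beside a steady region (orange) or another eligible region (grey), for pairs of equal level band.

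The densest gathering of steady regions was on scaffold 19, and this stretch was chosen after its values were seen. Between 6445898 and 6531010, 14 steady regions lay together, 13 of low and 1 of middle level, with levels from 1.32 to 28.5 and a median of 7.87. The low-level region at 6485974 to 6486242 had 13 other steady regions among the 18 other eligible regions within 50 kb. Counts of steady neighbours were highest at low level, where open sites are also most crowded and steady regions frequent. Low-level steady regions had a median of 3 other steady regions within 50 kb, against 1 at middle and 1 at high level, and 8.10%, 22.1% and 36.5% had none. The median number of other regions with a peak at all 4 stages within 50 kb was 7, 5 and 3 in the same order, and 58.5%, 14.1% and 61.7% of the eligible regions of these bands were steady.

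Over the genome, steady regions followed the eligible regions from which they were drawn. On the 27 scaffolds of at least 10 Mb, their share of the eligible regions ran from 33.8% on scaffold 1 to 44.9% on scaffold 26, and 0 of these scaffolds had an interval that lay wholly above or wholly below the overall 36.9%. Their density ran from 2.86 per Mb on scaffold 26 to 12.3 per Mb on scaffold 14, which also held the most eligible regions, 34.1 per Mb. On the 73 smaller scaffolds with eligible regions, 185 of 376 were steady (49.2%, 44.2 to 54.2). Eligible regions there also stood higher, with a median level of 83.2 against 62.9 on the large scaffolds. At equal level band the intervals overlapped, with 67.8% (61.6 to 73.4) and 61.5% (60.5 to 62.6) steady at high level and 12.3% (7.59 to 19.3) and 14.1% (13.5 to 14.8) at middle level.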

How the data were processed

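Per the submitters' processing notes, Bowtie2, bedtools and MACS2 were used, without version, role or settings; no source used here states the build, the Tn5 shift or the handling of duplicates. For each stage the authors deposited 1 list of 12 columns without header. Column 7 is taken as the deposited enrichment (a fold, or ratio, over background), column 8 as the deposited −log10 p-value, columns 5 and 12 as the deposited score and −log10 of the irreproducible discovery rate (IDR), which was at most 0.100, so weaker peaks are absent. Whether libraries were pooled before calling is not given.

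Regions, percentiles (ties averaged; 69.0% to 72.9% of peaks share an enrichment value), members, gaps and neighbours within 50 kb were computed with SciPy 1.17.1, pandas 2.3.3 and NumPy 2.4.6 under Python 3.11.15, and drawn with Matplotlib 3.10.9. Medians carry exact binomial order-statistic intervals. On simulated lists of 20000 regions, with never more than 1 peak per stage in a region, 100.0% of the planted members were found. Planted members were defined by the same percentile rule, so this checks the merging of peaks only. The members, lists and comparisons were chosen with earlier results of these data known. Named sites follow 1 rule: the 3 highest, the 3 lowest, the 3 of smallest spread at levels from 25 to 75, and 2 on each side of the limit. Gene context and sequence had been planned only for a named build and were not analysed here.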

Additional observations from a re-analysis of the deposited data

How the results depend on the processing

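No paired analysis was possible because both libraries of a stage share 1 list; for the same reason no library could be left out. The settings for peak width and for the gap to the nearest region were added after the data were seen. Of 72 values under 12 settings, 30 stayed within their interval or, for counts, within 1.5 times; the others follow, in the order number, share, median level, share with aligned summits, where given, then the differences in width and gap at middle level. The cause of these changes was not tested except where the setting itself fixes the count. Limit of 10 points: 5373, 22.8%, 88.7, 74.9% and a width difference of 60 bp. Limit of 20 points: share 50.6%, level 76.9 and width difference 33.2 bp. Ranks from −log10 p: share 31.9%, level 88.6, summits 75.6%, width difference 1.0 bp and gap difference -432 bp; 57.5% of the members were found again. Equal list lengths of 43317 peaks: share 35.4%, summits 74.6%, and a width difference of -4.38 bp, with an interval of both signs (-14.2 to 9.09). IDR of at most 0.01: 5141 regions, 41.3%, level 62.9, summits 75.4%, width difference 26.6 bp and gap difference -623.5 bp. Merged windows of 200 bp around summits: summits 76.8% and gap difference -191.5 bp. Percentiles among eligible regions: level 53.7, summits 72.6%, width difference 28.8 bp and gap difference -398 bp. Over 3 stages, without early blastula the values were 13500 regions, 57.3%, level 76.0 and summits 71.8%. Without early gastrula they were 44.4%, level 77.5 and a width difference of 33.0 bp. Without mid gastrula they were 45.3%, level 79.0, a width difference of 17.8 bp and a gap difference of -190.5 bp. Without late gastrula they were 49.99%, level 73.7 and a width difference of 17.6 bp. Fewer stages can only add members. Without the width limit, no value left its interval. The share of steady regions was lowest at middle level under all 12 settings. Depth cannot be read from the lists.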
